A study of Homo sapiens with 22 samples.

Results

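Peaks of RAD21 were compared between 2 chromatin immunoprecipitation sequencing (ChIP-seq) libraries of clone NIPBL-A2, taken after 24 h in DMSO, the solvent, and after 4 h in dTAGV-1. Clone NIPBL-A2 is a single clone of hTERT RPE-1, a human cell line from retinal pigment epithelium made immortal with telomerase. Its genotype is mCherry-P2A-FKBP12(F36V)-NIPBL, so both libraries carry the degron-tagged NIPBL. FKBP12(F36V) is a protein domain that dTAGV-1 links to the cell's degradation machinery. Cells were cycling and unsynchronised, and about 10% mouse NIH/3T3 chromatin had been added to both libraries as a spike-in. A DMSO peak was called retained when a 4 h peak overlapped it by at least 1 bp and lost when none did, and a 4 h peak with no DMSO partner was called new. The classes held 24695 retained, 15018 lost and 938 new peaks, together 40651 of the 341123 peaks in the 12 lists of the series. The level of NIPBL protein itself was not part of these data, and with 1 library per condition the differences below have no replicates behind them and were not tested.

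Cohesin is a ring of SMC1A, SMC3 and the kleisin RAD21, joined by STAG1 or STAG2, that holds DNA and extrudes it into loops. NIPBL stimulates the cohesin ATPase and is needed for loop extrusion and efficient loading. CTCF is a zinc-finger protein that binds a long motif and halts extruding cohesin, so that most cohesin peaks lie on CTCF sites. Cohesin is also found at active gene starts and enhancers, where NIPBL is abundant. WAPL and PDS5 proteins control its release.

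The sequences below show the 2 kinds of gene start on which the results turn: those with a RAD21 peak in DMSO but no CTCF peak, and those with both. Each is a stretch of 120 bases from the 250 bases before the start in the gene's own direction, 5′ to 3′, from RefSeq on build GRCh38.p14, with capitals for a match to the core letters of the CTCF motif on either strand. The stretch ends at the start, except that for CRACD, WDR38, AHCYL1 and KIF1B it was moved upstream to hold the match. These letters are CCA, any 2 bases, AG, any 2 bases and GGC. TMDD1 (chr12:51814926-51815045, minus strand), TBL1XR1 (chr3:177197483-177197602, minus strand) and CRACD (chr4:56048877-56048996, plus strand) had the lost CTCF-free peaks of highest DMSO fold enrichment at gene starts.
TMDD1: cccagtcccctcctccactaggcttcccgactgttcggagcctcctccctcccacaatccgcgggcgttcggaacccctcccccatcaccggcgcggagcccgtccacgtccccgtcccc
TBL1XR1: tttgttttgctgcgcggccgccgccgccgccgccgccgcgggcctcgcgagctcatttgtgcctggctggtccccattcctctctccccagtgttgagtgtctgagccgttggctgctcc
CRACD: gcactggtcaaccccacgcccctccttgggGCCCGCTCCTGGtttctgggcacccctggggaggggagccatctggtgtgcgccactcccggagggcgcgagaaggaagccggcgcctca
WDR38 (chr9:124853210-124853329), CHD9 (chr16:53054871-53054990) and AHCYL1 (chr1:109984555-109984674), all on the plus strand, had the retained CTCF-overlapping peaks of highest DMSO fold among starts with the letters upstream.
WDR38: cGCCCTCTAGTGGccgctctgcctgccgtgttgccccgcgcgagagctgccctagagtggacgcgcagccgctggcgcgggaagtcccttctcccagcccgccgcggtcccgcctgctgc
CHD9: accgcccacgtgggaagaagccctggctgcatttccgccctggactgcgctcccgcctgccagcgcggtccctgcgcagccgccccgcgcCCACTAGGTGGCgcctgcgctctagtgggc
AHCYL1: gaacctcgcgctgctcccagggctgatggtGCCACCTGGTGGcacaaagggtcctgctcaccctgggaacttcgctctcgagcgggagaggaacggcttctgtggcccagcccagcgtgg
KIF1B (chr1:10210320-10210439, plus strand) was the same choice among lost CTCF-overlapping peaks, and MED13L (chr12:116277694-116277813, minus strand) had the CTCF-free retained peak of highest fold at a gene start.
KIF1B: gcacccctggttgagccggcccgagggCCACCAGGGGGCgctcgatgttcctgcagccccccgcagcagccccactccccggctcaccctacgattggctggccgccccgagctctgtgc
MED13L: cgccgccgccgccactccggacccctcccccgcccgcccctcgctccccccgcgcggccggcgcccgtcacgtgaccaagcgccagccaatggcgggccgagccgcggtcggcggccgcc
KIF1B, like WDR38, CHD9 and AHCYL1, was chosen among starts with the core letters, so their presence at these genes follows from the choice. The other genes were chosen without regard to the letters, which were present at CRACD, where no CTCF peak was called. They were not found in the stretches shown for TMDD1, TBL1XR1 and MED13L.

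The lists give no read totals, and depth was taken from them as the lowest background pileup at a summit. It was 1.87 in DMSO and 3.16 at 4 h, so the library with fewer peaks was the deeper. Scaling the 4 h pileups down to the DMSO background left 25494 of the 4 h peaks and moved the share lost from 37.8% to 38.2%. It can only remove 4 h peaks, so by construction the share lost could not fall. The other RAD21 lists used here were clone A2 after 24 h in dTAGV-1 (28589 peaks) and clone NIPBL-D7, with mGreenLantern in place of mCherry, after 24 h in DMSO and 4 h or 24 h in dTAGV-1. CTCF (59138 peaks) and WAPL (2667) came from wild-type cells, STAG1, STAG2 and PDS5A from clone D7, and HA (230 peaks) from clone A2. The labels do not say which protein carries HA. Peak positions are those of the files, on hg38 per the submitters' processing notes.

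After 4 h, 15018 of 39713 DMSO peaks had no RAD21 peak, a share of 37.8% (95% Wilson interval 37.3% to 38.3%, which like all intervals below covers counting error only). Of the 25763 peaks at 4 h, 938 were new, or 3.64%. With the DMSO list limited to peaks whose −log10 q was 10 or more, the share lost was 23.7% and the share new 5.49%. With the DMSO list shortened to the length of the 4 h list, strongest peaks first, the shares were 12.6% and 12.1%. Both cuts take weak peaks out of the DMSO list, so by construction fewer peaks can be lost and more count as new. The classes were well separated: only 3 retained peaks shared under 100 bp with their 4 h partner and the smallest overlap was 47 bp, while no lost peak came closer than 113 bp to a 4 h peak. Where a peak remained, it stayed in place, with 96.7% of retained pairs having summits within 50 bp of each other. It was usually narrower, as 78.8% of 4 h partners were shorter than the DMSO peak, with a median change of −122 bp over all pairs. A partner here and below is the single peak with the largest overlap. Of the 39713 DMSO peaks, 134 (0.337%) were overlapped by 2 or more 4 h peaks.

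The lost peaks were the weaker ones. Fold enrichment here is the authors' value for a summit over its local background, used only to rank peaks within the DMSO list, and since a call at 4 h depends on strength this is a description. The median DMSO fold was 23.2 for retained and 5.92 for lost peaks. In the lowest decile of the list by fold (a decile holds 1 peak in 10) 97.3% of peaks were lost, in the fifth decile 33.8%, in the sixth 15.7% and in the highest none of 3972 (Wilson upper bound 0.0966%). Peaks of like strength were lost to unequal extents at different sites. In the fifth decile, between folds of 9.82 and 13.2, 59.2% of CTCF-overlapping peaks at gene starts were lost (53.5% to 64.6%), against 31.2% of those away from gene starts (29.6% to 32.7%). In the seventh decile the shares were 19.3% and 4.93%.

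**Figure D1:**
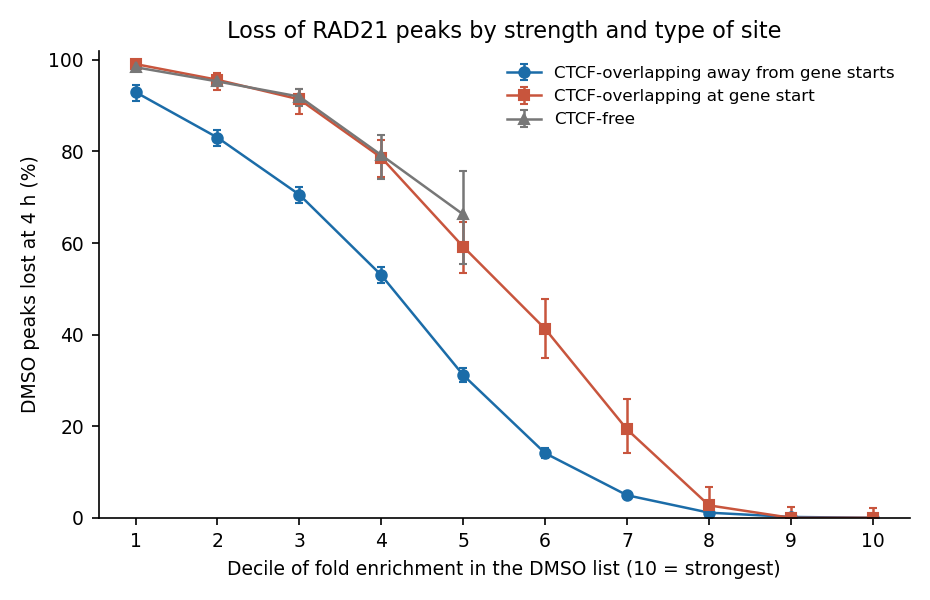
Share of clone A2 DMSO RAD21 peaks with no 4 h peak (vertical axis, %) by decile of DMSO fold enrichment (horizontal axis, 10 the strongest), for 3 types of site with at least 20 peaks in a decile, with 95% Wilson intervals. The line for CTCF-overlapping peaks at gene starts lies above that for CTCF-overlapping peaks elsewhere from the lowest decile to the seventh, with 59.2% against 31.2% lost in the fifth.

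The lost peaks of highest fold show the upper end of the class. A peak at chr11:1515324-1516069, at −34788 bp from the start of MOB2, a binding partner of NDR kinases, had a DMSO fold of 43.5. Next came a peak in EEF1G, a subunit of translation elongation factor 1, at chr11:62560286-62561113 with 40.5, and a CTCF-free peak in ZNF746 at chr7:149496825-149498121 with 37.8. Peaks in IRGQ, ZFYVE27 and ZMIZ1, a coactivator related to the PIAS proteins, had folds of 36.2, 35.9 and 34.2. All 6 were called in clone D7 in DMSO, at 4 h and at 24 h, and 5 of the 6 again in clone A2 at 24 h, all but the one in ZNF746. Over all lost peaks the shares called in clone D7 were 66.4%, 56.4% and 32.0%, and 29.0% in clone A2 at 24 h. At 5 of these 6 sites the 4 h library of clone A2 was thus the only RAD21 library of 6 without a peak.

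The 4 strongest DMSO peaks all remained. The highest, at chr5:141560482-141561622 in DIAPH1, a formin that builds actin filaments, had a fold of 269 in the DMSO list and of 40.3 in the 4 h list, each against its own background. The peak at −8802 bp from the start of MTHFSD had 207 and 73.1, that in ABTB2 193 and 83.5, and that in B4GALNT3 180 and 81.1. All 4 overlapped CTCF and STAG1, and the last 3 also STAG2 and WAPL, whereas the peak in DIAPH1 overlapped neither of those.

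CTCF marked the peaks that remained. Of retained peaks, 98.8% overlapped a CTCF peak of wild-type cells, against 64.6% of lost peaks, a difference of 34.2 points (Newcombe 95% interval 33.4 to 35.0). Within deciles of DMSO fold the difference was 8.92 points, and with lists of equal length 3.64 points. Only 291 retained peaks were CTCF-free. On the CTCF sites themselves the summits of RAD21 and CTCF nearly coincided, at a median distance of 21 bp for retained and 26 bp for lost peaks. The lost class had a longer tail, however, reaching 596 bp at its 95th percentile against 50 bp.

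Seen from CTCF, RAD21 was present in DMSO at 14.4% of the weakest decile of CTCF peaks by fold and at 98.0% of the strongest. Among CTCF peaks with RAD21 in DMSO, the share without it at 4 h was 90.6% in the weakest decile, 52.0% in the fifth and 9.30% in the strongest. Over the whole CTCF list 24255 peaks had RAD21 in both libraries, 9713 in DMSO only, 698 at 4 h only and 24472 in neither. At equal RAD21 strength the strength of CTCF made less difference. In the fifth decile of DMSO RAD21 fold, 32.5% of peaks on CTCF sites at or above that decile's median CTCF fold were lost and 33.7% of those on sites below it. The median CTCF folds of these sites were 47.1 and 14.9. The gap was wider in the second decile, at 80.6% and 90.9%. In the sixth to the ninth decile the order turned, with 16.4% lost on the stronger and 14.8% on the weaker CTCF sites in the sixth, and 6.25% and 4.69% in the seventh.

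**Figure D2:**
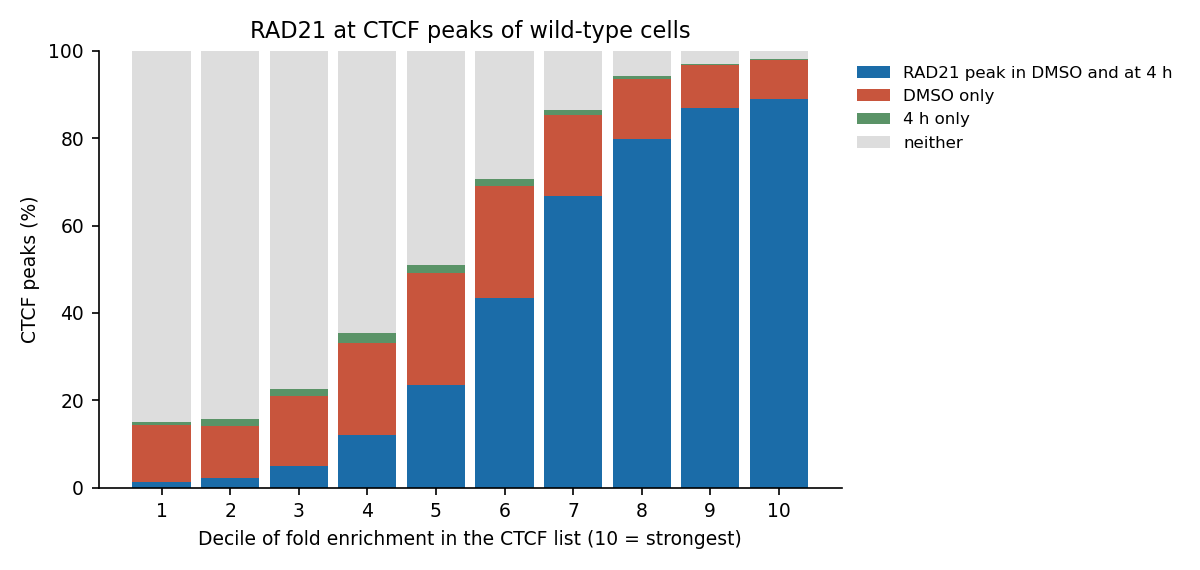
CTCF peaks of wild-type cells by decile of CTCF fold enrichment (horizontal axis, 10 the strongest), stacked as the percentage with a clone A2 RAD21 peak in both libraries, in DMSO only, at 4 h only or in neither. RAD21 in both rises with CTCF strength, while the weakest decile held RAD21 in 14.4% in DMSO and lost 90.6% of it.

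Peaks at gene starts were lost more often than peaks elsewhere. Starts came from a RefSeq table with 15812 of 19974 protein-coding genes, and a peak was called at a start when its summit lay within 1000 bp. The 1853 DMSO peaks on the chromosome for which the table listed no start were left out here. Of lost peaks 21.2% lay at a gene start, of retained peaks 4.42% and of new peaks 2.15%. The difference between lost and retained was 16.8 points (16.1 to 17.5), and 11.6 points within deciles of fold. Of DMSO peaks at starts 74.5% were lost (73.2% to 75.9%), against 33.4% of peaks away from them. By CTCF, 64.9% of CTCF-overlapping peaks at starts were lost (1859 of 2864) and 97.1% of CTCF-free ones (1186 of 1221). Their median DMSO folds were 8.17 and 4.55. Away from starts the shares were 25.1% with CTCF and 94.0% without, at median folds of 17.2 and 4.78. These shares by CTCF were not matched for fold. In the second decile of fold, 95.7% of CTCF-overlapping peaks at starts were lost, against 96.6% of all peaks at starts.

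Counted by gene, 4286 of the 15812 starts had a DMSO peak and 1132 had a 4 h peak. Of those 4286, 3182 had no retained peak, or 74.2%. Among starts with a divergent second start within 1000 bp the share was 80.5% (77.3% to 83.4%), and 73.1% among the others. The position of the summit differed between the classes too. Within 1000 bp of a start, 71.9% of lost CTCF-free summits lay downstream of it, with a median of 176 bp into the gene. Lost CTCF-overlapping summits lay downstream in 56.3% and all retained ones in 34.5%, with medians of 58 bp downstream and 90.5 bp upstream. Retained CTCF-free summits were few and lay downstream in 62.9% (22 of 35). Among CTCF-free summits the difference, retained minus lost, was −9.07 points, with an interval from −25.8 to 5.16.

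**Figure D3:**
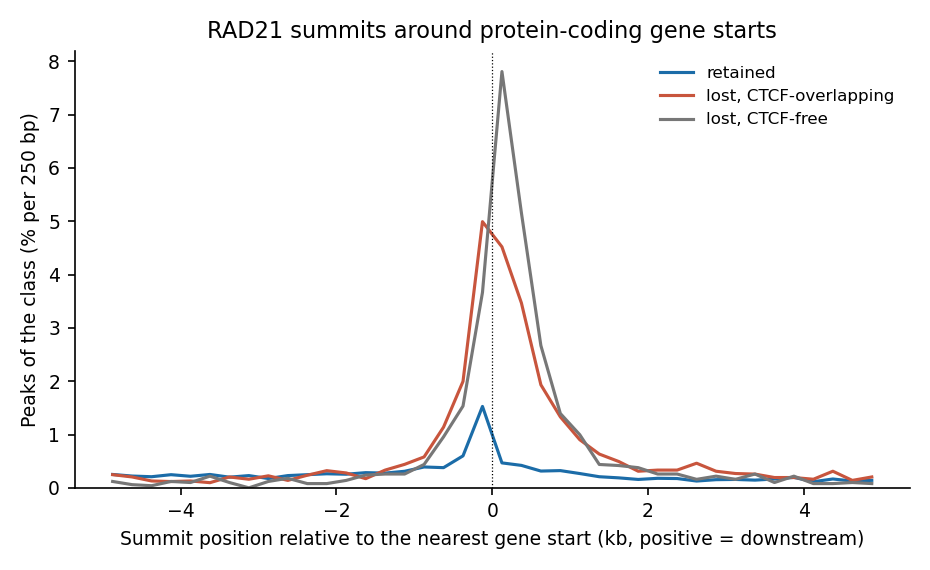
Percentage of each class of DMSO RAD21 peaks (vertical axis, per 250 bp bin) by position of the summit relative to the nearest protein-coding gene start (horizontal axis, kb, positive values inside the direction of transcription). Lost CTCF-free summits crowd just downstream of the start, where 71.9% of those within 1000 bp lay, and retained summits form a low peak just upstream, with 34.5% downstream.

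The same core letters, searched on both strands of the 300 bases from 250 upstream to 50 downstream of a start, were present at 2.69% of all 15812 starts. They were present at 7.43% of the 1104 starts with a retained peak (6.02% to 9.13%), at 3.91% of starts with a lost CTCF-overlapping peak and at 1.49% of starts with a lost CTCF-free peak. Among starts without a DMSO peak the share was 2.16%. The starts bearing RAD21 were richer in G and C, with medians of 66.7% in the retained group and 67.7% in both lost groups against 60.7% at starts without a DMSO peak.

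The strongest lost CTCF-free peaks at starts belonged to genes of several kinds. TMDD1 had a DMSO fold of 15, TBL1XR1, a component of a transcriptional corepressor complex, 14.7, and CRACD, a regulator of actin capping, 13.8. KIAA1549 had 13.0, AHR, the aryl hydrocarbon receptor, 12.5, and ID2, an inhibitor of basic helix-loop-helix factors, 11.7. The peak over TBL1XR1 was 2620 bp wide and that over AHR 1721 bp. All 6 were also called in clone D7 in DMSO and 4 of the 6 there at 4 h. They overlapped PDS5A in all 6 cases, STAG1 in 5 and STAG2 in none. Over all 1186 lost CTCF-free peaks at starts, 70.7% were called in clone D7 in DMSO and 63.9% there at 4 h. PDS5A overlapped 48.0% of that class, STAG1 64.5% and STAG2 1.77%. The named peaks, with 6 of 6 in clone D7 in DMSO and 6 of 6 with PDS5A, thus lay above the class in both. They were picked for highest fold, and the median fold of the class was 4.54.

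CTCF-free peaks seldom remained, and those of highest fold were varied. MED13L, a subunit of the Mediator kinase module, had a fold of 38.3 in DMSO and 5.99 at 4 h at its start. ZBTB12 had 25.0 and 4.52, again at the start. A peak 284536 bp from any gene, with NXPH2 the nearest start, had 30.5 and 27.9, overlapped STAG1 but not STAG2, and was called in all 6 RAD21 lists. Of the remaining 3, 2 lay near TAS2R16, a bitter taste receptor gene, and 1 near TRAT1. None of these 3 was called in any list of clone D7.

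For gene groups the counts of lost peaks are to be read against the 74.2% over all starts, and no difference between groups was tested. Of 19 immediate early and AP-1 genes with a start in the table, 11 had a DMSO peak and 9 of these lost it. KLF4, a zinc-finger factor, had a lost peak of fold 11.8, and IER2, an immediate early gene, of 9.90. The MAPK phosphatases DUSP1 and DUSP6 kept theirs, with folds of 19.1 and 9.56. The DUSP1 peak was 3698 bp wide in DMSO and 777 bp at 4 h, and the DUSP6 peak 3556 bp and 581 bp.

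Among 20 targets and members of the YAP and TGF-beta pathways 15 had a peak and 11 lost it. AJUBA, a LIM protein of the Hippo pathway, was lost from a fold of 16.6 and AMOTL1, an angiomotin, from 12.4. THBS1, thrombospondin, kept a peak of fold 81.4 whose width was 3606 bp in DMSO and 1009 bp at 4 h. CCN2, a classic YAP target, kept one of fold 13.4, at 2030 bp and 679 bp. TGFBR2 and FN1 kept theirs as well, while SMAD7, TGFB1, TGFB2 and TGFBR1 lost theirs.

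Cell cycle and p53 genes had 8 peaks at 23 starts and lost 6. CDKN1A, which encodes p21, lost a CTCF-free peak of fold 5.81, and BAX, a pro-apoptotic protein, lost 1 of 5.37. PLK2 and CDKN2B, which encodes the inhibitor p15, kept peaks of fold 44.5 and 21.9.

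Ribosomal protein genes had peaks at 18 of 66 starts and lost 16, with RPS28 and RPL26 the strongest lost at 8.98 and 8.84. The RPS28 peak also lay 42 bp inside NDUFA7, which starts beside it. RPL10A and RPS26 kept theirs, at 38.7 and 20.8.

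Of 16 starts of genes for cohesin and its regulators 7 had a DMSO peak, and 2 of these were lost. NIPBL itself lost a CTCF-overlapping peak of fold 5.51 whose summit lay 746 bp upstream of its start, and SMC3 lost a CTCF-free peak of 3.54. STAG1 kept a peak of 56.5 and PDS5B of 45.1, and STAG2, CTCF and SMC2 also kept theirs. The median DMSO fold of this list was 15.5, against 5.87 for the ribosomal genes and 6.82 for the immediate early genes. Of retinal pigment epithelium genes only 3 of 15 starts had a peak. MITF, the pigment cell regulator, lost a CTCF-free peak of 3.36, and RDH5, a retinol dehydrogenase, and MERTK, a phagocytosis receptor, kept peaks of 35.9 and 33.0. No HOX gene of 20 with a start had a DMSO peak within 1000 bp of it.

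Loss inside genes exceeded loss between them. Away from starts, 38.7% of peaks within a protein-coding gene were lost (37.9% to 39.4%), against 28.6% outside (27.9% to 29.3%). Of all lost peaks 58.6% lay within a gene and of all retained 44.3%. This difference of 14.3 points did not shrink within deciles of DMSO fold, where it was 14.5. For CTCF-overlapping peaks away from starts it was 15.9 points within deciles of fold.

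Single long genes lay at both extremes. Among the 157 gene bodies of at least 100000 bp with at least 10 DMSO peaks, SMAD3, the TGF-beta signal transducer, lost 10 of 10. ZMIZ1 lost 17 of 18 and TCF7L2, a Wnt pathway transcription factor, 11 of 12. At the other end ERBB4, a receptor tyrosine kinase, lost 0 of 10 and ERC2 0 of 12. NRXN3 lost 1 of 12 and PDE4D, a cAMP phosphodiesterase, 2 of 21. Peaks in these 2 sets differed in strength and in CTCF. The median DMSO fold was 5.95 in SMAD3, with CTCF at 2 of 10 peaks. It was 15.2 in ERBB4 and 12.6 in ERC2, where every peak overlapped CTCF. These genes were picked for their shares after the values were seen.

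Lost peaks lay next to each other more often than retained ones lay next to lost ones: the nearest DMSO neighbour was lost for 45.7% of lost and 33.4% of retained peaks. Runs of 5 or more consecutive lost peaks held 19.2% of the class. The longest, 17 peaks over 227569 bp of chromosome 10, lay at ZMIZ1, followed by 16 peaks on chromosome 2 from ASAP2 to YWHAQ. Runs of 15 lay at BCOR, a Polycomb corepressor, and around ACTN4 on chromosome 19. A run of 14 lay at SMAD3. Only 8 of the 17 peaks at ZMIZ1 overlapped CTCF, and 0 lay at a gene start.

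Chromosomes ranged from 29.4% lost on X (26.7% to 32.2%) to 47.0% on 19 (44.2% to 49.8%), with 46.9% on 16 and 45.1% on 22. The share of DMSO peaks at gene starts was 7.30% on X and 16.8% on 19. It did not follow loss throughout, as chromosome 10 lost 40.9% with 9.96% at starts and chromosome 12 lost 35.7% with 11.1%. Away from gene starts 25.9% of peaks were lost on X and 41.0% on 19. In windows of 1000000 bp with at least 25 DMSO peaks, the window of chromosome 2 that holds ASAP2 and YWHAQ lost 26 of 34, among the highest shares. The window of X that holds ARHGAP36 and IGSF1 lost 1 of 27, with a median fold of 9.75, below the 13.2 of the whole list. All 27 of its peaks overlapped CTCF and 0 lay at a gene start. In the chromosome 2 window 21 of the 34 overlapped CTCF and 8 lay at a gene start.

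Peak width was related to loss in both directions. Lost peaks were narrower, with a median of 451 bp against 738 bp for retained, but within deciles of fold the difference was −4.0 bp. By width, 81.0% of peaks under 400 bp were lost and 10.8% of those of 800 to under 1000 bp, and the share rose again to 40.3% (36.0% to 44.9%) at 2000 bp or more. The widest group had a median fold of 15, and 41.9% of its peaks lay at gene starts, against 7.69% at 800 to under 1000 bp.

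The broad peaks lost their breadth even where they were retained. The DMSO list held 461 peaks of 2000 bp or more and the 4 h list 6. Of the 461, 186 were lost and 275 retained. The retained ones had a median of 2519 bp in DMSO and of 698 bp for the 4 h partner, with every partner narrower. Only the partner with the largest overlap was measured, so any further 4 h piece of the same peak is left out. Retained peaks of 600 to under 1000 bp went from a median of 778 bp to 650 bp. Of these 275 peaks 269 had a partner in the 24 h list, with a median of 1236 bp. In clone D7 the partners' median was 2511 bp in DMSO (275 peaks), 1953 bp at 4 h (273) and 1298 bp at 24 h (272). Clone D7 had 654 peaks of 2000 bp or more in DMSO, 425 at 4 h and 125 at 24 h, so the fall at 4 h was steeper in clone A2, a difference that was not tested. Width depends on the depth and on the caller, and the 4 h library of clone A2 was the deeper of its pair.

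The wide peaks named here were chosen by width after it was seen, and their widths in other lists are those of the partner alone. The peak at chr3:187738557-187746105 in BCL6, a transcriptional repressor, was 7549 bp wide in DMSO, 917 bp at 4 h and 2788 bp at 24 h. In clone D7 it measured 6062 bp in DMSO and 4913 bp at 4 h. The peak in CDK6, a cyclin-dependent kinase, went from 5775 bp to 1359 bp, and that 153 bp from the start of ALCAM, a cell adhesion molecule, from 5146 bp to 784 bp. A peak near CEBPB, a basic leucine zipper factor, went from 4882 bp to 1039 bp. Broad peaks in ZMIZ1 (5508 bp) and TGIF1 (5071 bp) and near FOSL2, an AP-1 subunit (5225 bp), were lost at 4 h. All 3 were called again at 24 h, at 1109 bp, 824 bp and 390 bp. They were called in clone D7 at 4 h at 3092 bp, 1418 bp and 2160 bp.

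Spacing differed modestly. The nearest other DMSO summit was at a median of 12180.5 bp for lost and 17592 bp for retained peaks. Of peaks with a neighbour under 2000 bp away 56.8% were lost, falling step by step to 27.5% of those with none within 100000 bp. Peaks with a close neighbour were also weaker, with a median fold of 8.39 under 2000 bp. In the fifth decile of fold, 44.4% of peaks with a neighbour within 5000 bp were lost and 31.1% of the others. The median gap between adjacent summits went from 34669.5 bp in DMSO to 58827.5 bp at 4 h, and gaps of 1000000 bp or more from 204 to 227. A lost peak lay at a median of 26065.5 bp from the nearest 4 h summit.

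**Figure D4:**
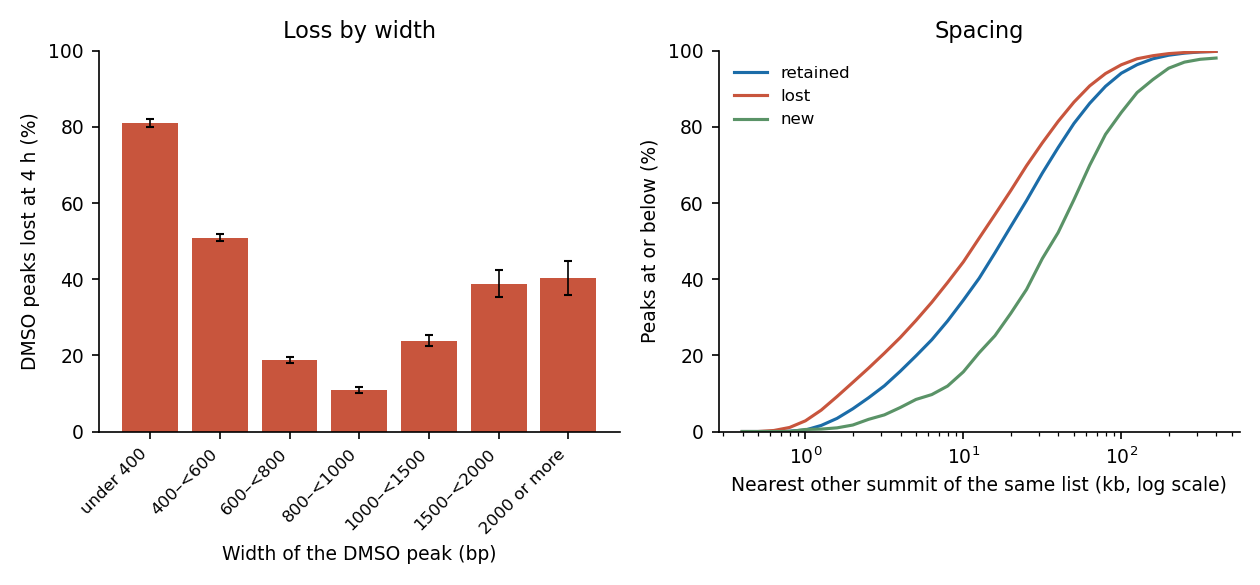
Left, share of clone A2 DMSO RAD21 peaks lost at 4 h (vertical axis, %, with 95% Wilson intervals) by width of the DMSO peak in bp: 81.0% under 400 bp, 10.8% at 800 to under 1000 bp and 40.3% at 2000 bp or more. Right, cumulative percentage of retained, lost and new peaks by distance to the nearest other summit of their own list (kb, log scale), where lost peaks lie closest and new peaks farthest.

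The classes were then compared with cohesin partners and regulators. STAG2, an accessory subunit, had the largest difference among the 6 lists of other proteins: 72.4% of retained and 13.8% of lost peaks overlapped a STAG2 peak, and within deciles of DMSO fold retained peaks still exceeded lost ones by 22.2 points. STAG1 overlapped 73.5% of retained and 43.6% of lost peaks and PDS5A 59.2% and 38.3%. For these 2 the order turned within deciles of fold, where lost peaks exceeded retained ones by 12.9 and 19.7 points. In the fifth decile, 44.9% of peaks with PDS5A were lost and 24.8% without it, 39.9% with STAG1 and 27% without, and 17.0% with STAG2 against 42.5% without. For CTCF-overlapping peaks away from gene starts the within-decile differences had the same signs, at 23.4 points for STAG2, −8.79 for STAG1 and −18.9 for PDS5A. STAG1, STAG2 and PDS5A were mapped in the other clone, so an overlap places the proteins at the same site, not in the same cells.

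At gene starts lost peaks overlapped all 3 lists less often than retained ones, without matching for fold. Of 3045 lost peaks there, 70.9% overlapped STAG1 (69.2% to 72.5%), 65.4% PDS5A (63.7% to 67.1%) and 3.32% STAG2 (2.74% to 4.01%). The 1040 retained peaks at starts overlapped STAG1 in 95.2%, PDS5A in 92.3% and STAG2 in 56.3%. Lost CTCF-free peaks away from starts were different again, with STAG1 at 30.4%, STAG2 at 24.8% and PDS5A at 11.8%. WAPL overlapped 10.6% of retained peaks and 0.0866% of lost ones (13 peaks), but its list was short and held few sites in all. Within deciles of DMSO fold the WAPL difference was 0.253 points. HA overlapped 62 lost and 154 retained peaks, or 0.413% and 0.624%.

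**Figure D5:**
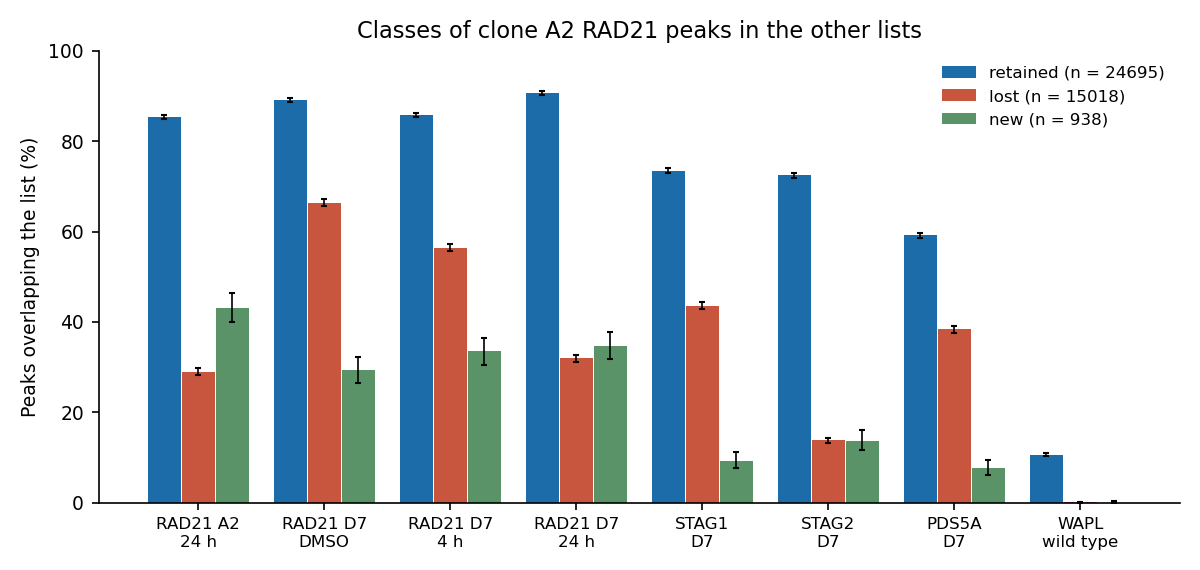
Percentage of retained, lost and new clone A2 RAD21 peaks (vertical axis) that overlap each of 8 other peak lists (horizontal axis) by at least 1 bp, with 95% Wilson intervals. Retained and lost bars lie farthest apart for RAD21 at 24 h in either clone and for STAG2, where they stand at 72.4% and 13.8%.

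The 24 h library of clone A2 is set against the same DMSO library, so its values stand here side by side and not as a second observation of loss. Of peaks lost at 4 h, 29.0% were called at 24 h (28.3% to 29.8%), and of retained peaks 85.3%. With lists of equal length 51.4% of the lost peaks were called at 24 h. The share called at 24 h was 34.6% of lost CTCF-overlapping peaks, 18.9% of lost CTCF-free peaks and 14.6% of lost CTCF-free peaks at gene starts. These groups were not matched for fold. At gene starts the median DMSO fold was 4.54 for lost CTCF-free and 6.07 for lost CTCF-overlapping peaks. The 24 h list was the longer, with 28589 peaks against 25763, at a background of 2.83 against 3.16.

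Clone D7 is a second clone of the same cell line with its own libraries. In its DMSO list 66.4% of the lost and 89.1% of the retained peaks were called. Within deciles of clone A2 DMSO fold this order turned, with retained minus lost at −4.93 points. For the D7 lists at 4 h and 24 h the within-decile differences were 3.58 and 29.7 points. Of DMSO peaks, clone D7 lost 7500 of 37566 at 4 h by the same rule, or 20.0%, against the 37.8% of clone A2. These shares count lost peaks only. The 4 h list of clone D7 was longer than its DMSO list, at 39059 peaks, whereas the list of clone A2 went from 39713 to 25763. Over the 31980 clone A2 DMSO peaks shared with D7, 31.2% were lost in A2 and 13.6% in D7 at 4 h. Of the 9967 shared peaks that were lost in A2, 30.1% had no D7 peak at 4 h (29.2% to 31.0%) and 58.2% none at 24 h. For the 22013 shared peaks that A2 retained, the figures were 6.17% and 6.25%. These shares were not matched for fold. In all, 2104 sites were called in DMSO in both clones and in no dTAGV-1 library of either. Of the lost gene start peaks, 80.2% were called in clone D7 in DMSO, 75.6% at 4 h (74.1% to 77.1%) and 41.0% at 24 h. For retained gene start peaks the shares were 98.0%, 97.7% and 95.3%, again without matching for fold. Clone, library depth (4.05 in D7 at 4 h) and library cannot be told apart as the source of the gap at 4 h.

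New peaks were few and weak. Their median 4 h fold was 5.00, against 12.5 for the whole 4 h list, their median width 327 bp and their median distance to the nearest DMSO summit 27148 bp. CTCF overlapped 75.7%, with the RAD21 and CTCF summits at a median of 20 bp, on CTCF peaks of median fold 9.60 against 15.6 for the CTCF list. The summit lay inside a protein-coding gene for 37.8% of new and 44.3% of retained peaks. Of new peaks 28.6% lay over 100000 bp from any protein-coding gene, against 13.4% of retained and 10.2% of lost peaks. Any of the other 4 RAD21 lists held 68.6% of them (65.5% to 71.4%), among them 43.2% in the clone A2 list at 24 h and 29.3% in clone D7 in DMSO. The 4 h library was the deeper, and 50.0% of new peaks had a fold under 5.

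The new peaks of highest fold all overlapped CTCF. They lay in PAPPA2, which encodes a protease of IGF-binding proteins, with 12.2, in LRP2, which encodes megalin, with 11.5, and 623991 bp from the start of ISL1 with 11.3. Peaks in RUNDC3B, near PLPPR4 and near KCNJ3 followed with 11.1, 10.3 and 10.3. Of the 6, 4 had been called in the DMSO list of clone D7, and 5 were called in clone A2 at 24 h.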

How the data were processed

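RAD21 was profiled by ChIP-seq with 1 library per condition. Per the submitters' processing notes, BWA, Picard, SAMtools, bedtools, deepTools and MACS2 were used, with builds hg38 and mm10. Versions are not given in the sources used here. The authors deposited 1 peak list per immunoprecipitation. Its columns hold a score, the fold enrichment of the summit as a ratio, and the −log10 of p and of q, all as deposited by the authors. File-internal names carry a q of 0.01 for RAD21 and 0.001 for CTCF. Peaks that shared 1 bp or more were counted as overlapping, with Python 3.11.15, numpy 2.4.6 and pandas 2.3.3, after the functions were tested on simulated data.

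Summit pileup and background were solved from fold and −log10 p under a Poisson model, and came out whole (within 0.05) for 100% of RAD21 peaks with a −log10 p under 250. The lowest background served as depth, and no spike-in factor was used. Gene starts (250 bases upstream and 50 downstream) and gene bodies came from RefSeq on GRCh38.p14. Exons and introns were not analysed here. Deciles rank DMSO peaks by fold, and differences within deciles are averages weighted by the numbers of peaks. Shares carry Wilson and differences Newcombe 95% intervals.

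Named peaks followed a fixed rule: the 6 lost, 4 retained, 6 new, 6 retained CTCF-free and 6 lost CTCF-free gene start peaks of highest fold, and up to 2 lost and 2 retained per gene list. Gene lists, members and this rule were chosen with earlier results of these data known. The alternatives were stricter q, other overlap rules, equal list length, scaled depth, shared peaks, the upper CTCF list, a wider start window and deciles of fold. Inputs were not analysed here, and some genes that met a stated choice are not reported here.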

Additional observations from a re-analysis of the deposited data

Results flagged for a closer look

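Both clones were followed from DMSO to 4 h of dTAGV-1, and 2 properties of the RAD21 lists moved in opposite directions in them. The share of peaks at gene starts went from 10.8% to 4.44% in clone A2, a change of −6.35 points, and from 12.5% to 13.4% in clone D7, a change of 0.856 points. The share of peaks overlapping CTCF went from 85.9% to 97.9% in clone A2, a change of 11.98 points, and from 83.1% to 78.2% in clone D7, a change of −4.88 points. The lists also changed in length, from 39713 to 25763 peaks in clone A2 and from 37566 to 39059 in clone D7. The shares were not matched for list length. Each change rests on 1 library per clone and condition, and no test of the clones against each other was made.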

How the results depend on the processing

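Over all alternatives, 19 values stayed within counting error, 39 moved and 1 reversed. With summits within 200 bp the share new was 4.75%, lost peaks called at 24 h 26% and in clone D7 DMSO 55.5%, the last 65.1% with 50% coverage. Scaled depth gave 3.22% new.

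A stricter q of 10 in all lists gave 26.8% lost and 2.47% new, and in the DMSO list alone 23.7% and 5.49%. In this order, the CTCF difference was 12.2 and 12 points, the gene start difference −13.2 in both, the width difference 244 and 243 bp, the spacing difference 3948 and 4794.5 bp, recall at 24 h 34.4% and 41.3%, and presence in D7 DMSO 71.7% and 79.1%.

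Lists of equal length gave 12.6% lost, 12.1% new, 3.64 points for CTCF, −11.7 for gene starts, 205 bp, 6941 bp, 51.4% at 24 h and 89.8% in D7 DMSO. Equal length drops the weakest DMSO peaks, so by construction fewer can be lost and more 4 h peaks count as new.

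Peaks also called in D7 DMSO gave 31.2% lost, 30.1 and −20.7 points, 250 bp, 6570 bp and 36.7% at 24 h. That alternative has no value for new peaks or for presence in D7 DMSO. The upper 50% of the CTCF list gave 56.8 points and a 2500 bp window −18.4 points. Within deciles of fold the values were 8.92 points for CTCF, −11.6 for gene starts and −4.0 bp for width, the reversal. The cause of the other moves was not tested. No paired analysis was possible because each condition had 1 library and the labels give no replicate numbers.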
